A study of Avicennia officinalis with 4 samples.

Results

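The basic helix-loop-helix (bHLH) transcription factors described here are the 9 unigenes, or assembled transcript sequences, that the study placed in this family in its list of salt-responsive transcription factors of Avicennia officinalis, a mangrove tree. They are 9 of 168308 unigenes in the deposited table and 9 of the 57 unigenes in that list. The list gives Ug20461, Ug120810 and Ug144793 as raised by salt and Ug39192, Ug49859, Ug71489, Ug102959, Ug138470 and Ug138814 as lowered. The methods of the study selected on the fold change and p-value of salt against control in these same 4 libraries. The differences between salt and control given here therefore describe the members of the list. For the bHLH members listed as raised, the p-values printed by the study lie above the threshold in its methods. Counts of calls among them are given beside the share over all unigenes and support nothing.

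Roots were taken from 2-month-old greenhouse seedlings raised without NaCl from wild-collected propagules, moved to sand and watered with half-strength Hoagland's solution. The salt group (replicates 1 and 2) received 500 mM NaCl in this solution for 24 h and the control group (replicates 1 and 2) was not treated with NaCl. Each of the 4 libraries was made from the roots of 3 plants, so a library is an average over those plants and over all root cell types. The table pairs no unigene with a gene name, and the root label was therefore not checked against marker genes.

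Proteins of the bHLH family bind DNA as dimers. A stretch of basic residues contacts the E-box, the short motif CANNTG, and the helix-loop-helix part that follows holds both partners together. The family is among the largest groups of transcription factors in plants. In Arabidopsis its members include regulators of root hair growth, of iron uptake by the root, and of responses to jasmonate, light and cold. Which of these branches each unigene belongs to is not given for most of the 9, and a role is therefore not assigned to them. The text of the study names bHLH130 and another bHLH factor as raised by salt, without unigene numbers. For its raised transcription factors together it points to qRT-PCR beside the sequencing. It proposes that the raised bHLH factors may take part in removing reactive oxygen species through peroxidases. In the gene network of the study, the name bHLH130 stands near Ug120810, but labels overlap there and this pairing is uncertain. In Arabidopsis the factor of that name belongs to a small group that activates the flowering regulator CONSTANS. The nearest proteins in the database search of the study came from grapevine for Ug39192, Ug71489, Ug120810 and Ug144793, from tomato for Ug49859 and Ug138470, from poplar for Ug102959, from soybean for Ug138814 and from pepper for Ug20461.

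The libraries held 16943847 (salt-treated replicate 2) to 22074032 (control replicate 1) reads on the unigenes that could be tested. RPKM divides the reads of a unigene by its length in kilobases and by the depth of the library. CPM is the number of reads scaled to library size, here with TMM factors that adjust for the composition of each library, and these factors lay between 0.973 and 1.05. Where a library had 0 reads of a unigene, up to 3 reads remain possible, which is 0.134 to 0.175 CPM. Of the 168308 unigenes, 121929 had reads and 62900 had enough reads in at least 2 libraries to be tested with edgeR. Only 4 of the 9 bHLH unigenes, Ug39192, Ug49859, Ug71489 and Ug102959, were among the latter, all from the lowered side of the list. Of these, Ug39192, Ug71489 and Ug102959 reached 10 reads in the controls only. The filter thus also favours a lower level in salt for them, and their fitted values only describe it. The other 5 are described by their reads. In RNA from whole roots, fewer cells of a type and less RNA per cell cannot be told apart.

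Ug39192, Ug71489 and Ug102959 were low in both salt-treated libraries and higher in both controls. Ug39192 is a short unigene of 372 bp. Control replicate 1 had 20 of its reads, control replicate 2 had 29, salt-treated replicate 1 had 6 and salt-treated replicate 2 had 2. Its RPKM was 2.40 and 4.38 for the controls and 0.741 and 0.314 under salt, or 3.39 ± 1.40 and 0.527 ± 0.302 (SD, n = 2 libraries each). Both salt-treated libraries lay below both controls. Within replicate 1, the normalized reads of the control were 3.40 times those of the salt-treated library (95% exact counting interval 1.32 to 10.3). Within replicate 2 they were 14.02 times as high (3.55 to 121). Both intervals lie above 1, but this unigene was listed as lowered in these same libraries, so this is no test. The intervals overlap each other. PCR copies are counted as reads, so all such intervals cover counting error only.

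Ug71489 (1210 bp) had the most even control level of the 6 unigenes listed as lowered. Control replicates 1 and 2 had 16 and 14 of its reads, salt-treated replicate 1 had 4 and salt-treated replicate 2 had 2. The RPKM was 0.589 and 0.650 for the controls and 0.152 and 0.0965 under salt, or 0.619 ± 0.043 and 0.124 ± 0.039 (SD, n = 2 each). The groups did not overlap. The control exceeded the salt-treated library 4.08 times within replicate 1 (interval 1.32 to 16.8) and 6.77 times within replicate 2 (1.55 to 61.3). Per kilobase, this was the lowest control level of the 6 unigenes listed as lowered. The mean RPKM over the 4 libraries was above that of 30.7% of the unigenes with reads, compared with 68.5% for Ug39192.

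Ug102959 (457 bp) was read 17 and 11 times in the controls, 0 times in salt-treated replicate 1 and 4 times in salt-treated replicate 2. Its RPKM was 1.66 and 1.35 in control replicates 1 and 2. In salt-treated replicate 2 it was 0.511, and the 0 of salt-treated replicate 1 allows an RPKM of up to 0.302. The groups did not overlap here either, and the group values were 1.504 ± 0.216 and 0.256 ± 0.361 (SD, n = 2 each). Within replicate 1 the interval of the ratio put the control at least 4.21 times above the salt-treated library. Within replicate 2 the ratio was 2.66, and its interval of 0.788 to 11.4 includes 1. For this unigene, the difference within replicate 2 was therefore not larger than the counting error.

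**Figure D1:**
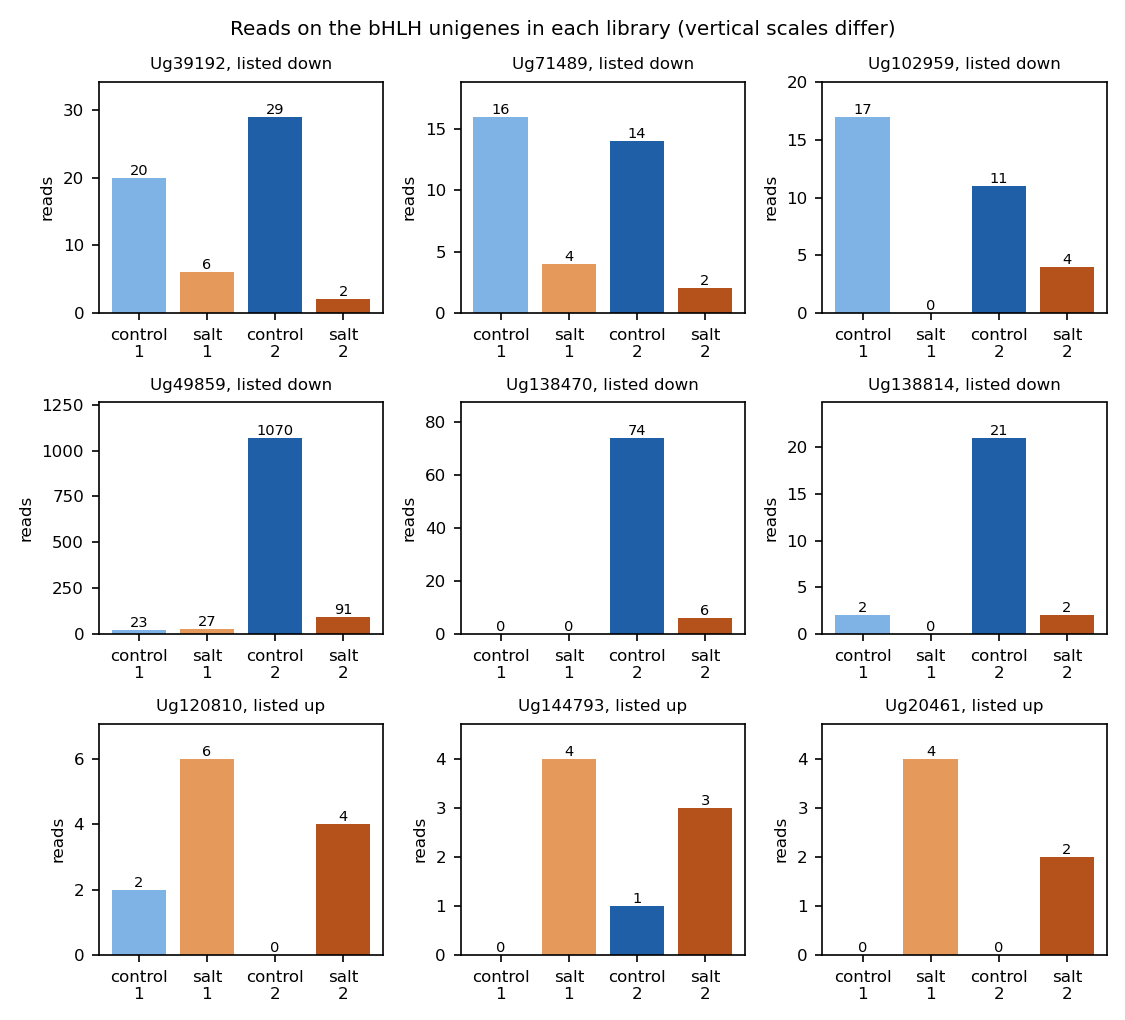
Reads (vertical axis, number of reads, each panel on its own scale from 0) on each of the 9 bHLH unigenes in the 4 libraries, with control in blue, salt in orange, and the replicate number under the bars. In the top row the controls hold 11 to 29 reads and the salt-treated libraries 0 to 6, whereas in the middle row 1 library, control replicate 2, stands above the others, and in the bottom row no library exceeds 6 reads.

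Ug49859 (1241 bp) was the most abundant of the 9 and the one with the most reads, 1211 in all. Control replicate 2 had 1070 of these and salt-treated replicate 2 had 91, but control replicate 1 had 23 and salt-treated replicate 1 had 27. Its RPKM was 48.4 and 4.28 in the replicate 2 libraries and 0.826 and 0.999 in the replicate 1 libraries. Control replicate 2 alone held 89.0% of its CPM. The groups overlapped, since both salt-treated libraries lay above control replicate 1. With 24.6 ± 33.7 RPKM for the control group and 2.64 ± 2.32 for the salt group (SD, n = 2 each), the spread within each group was close to or above its mean. In control replicate 2 this unigene was above 97.8% of the unigenes with reads in that library, and in control replicate 1 above 41.4%.
Within replicate 2, control reads of Ug49859 were 11.4 times those of the salt-treated library (interval 9.17 to 14.2). Within replicate 1 the ratio was 0.869 (0.476 to 1.57), so no difference was detectable there at this depth. These intervals do not overlap. The lower level in salt was thus present in replicate 2 and not found in replicate 1.

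Ug138470 (653 bp) had reads in the replicate 2 libraries only. The control library had 74 and the salt-treated library 6, which is an RPKM of 6.36 and 0.537. The 0 reads in both replicate 1 libraries allow an RPKM of up to 0.205 (control) and 0.211 (salt). The ratio within replicate 2 was 11.9 (5.22 to 33.5) and there is none within replicate 1. Ug138814 (334 bp) was read 21 times in control replicate 2, 2 times in control replicate 1, 2 times in salt-treated replicate 2 and 0 times in salt-treated replicate 1. Its ratio within replicate 2 was 10.1 (2.48 to 89.3), while the interval within replicate 1 leaves both directions possible. In both unigenes the groups overlapped or met. Like Ug49859, they drew at least 90% of the CPM of the control group from control replicate 2 (100% for Ug138470, 93.1% for Ug138814 and 98.4% for Ug49859), compared with 65.2%, 53.1% and 54.4% in the higher control library for Ug39192, Ug71489 and Ug102959. A single control library reached this share for 8.10% of the 62900 tested unigenes and for 26.2% of all unigenes with reads.

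The numbers of Ug138470 and Ug138814 lie in a stretch of the assembly whose unigenes share this distribution. This was looked for after their values were seen. Of the unigenes with at least 10 reads whose number lay within 500 of that of Ug138470, there were 752, and the median share of their CPM in control replicate 2 was 63.7%. For the 712 around Ug138814 it was 65.3%. In all 96462 unigenes with at least 10 reads the median was 23.0%. Of the neighbours of Ug138470, 34.3% had 90% or more of their CPM in the replicate 2 libraries together, compared with 38.3% of the neighbours of Ug138814 and 5.56% of all. The stretches around both overlap, so they are not independent of each other. Around Ug49859 the median share of control replicate 2 was 23.7%, so the neighbours in number of this unigene did not share its distribution. Around the other 6 bHLH unigenes it lay between 21.2% and 24.8%. The sources used here do not give how unigene numbers were assigned, and the part of this in the difference between salt and control was not tested.

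**Figure D2:**
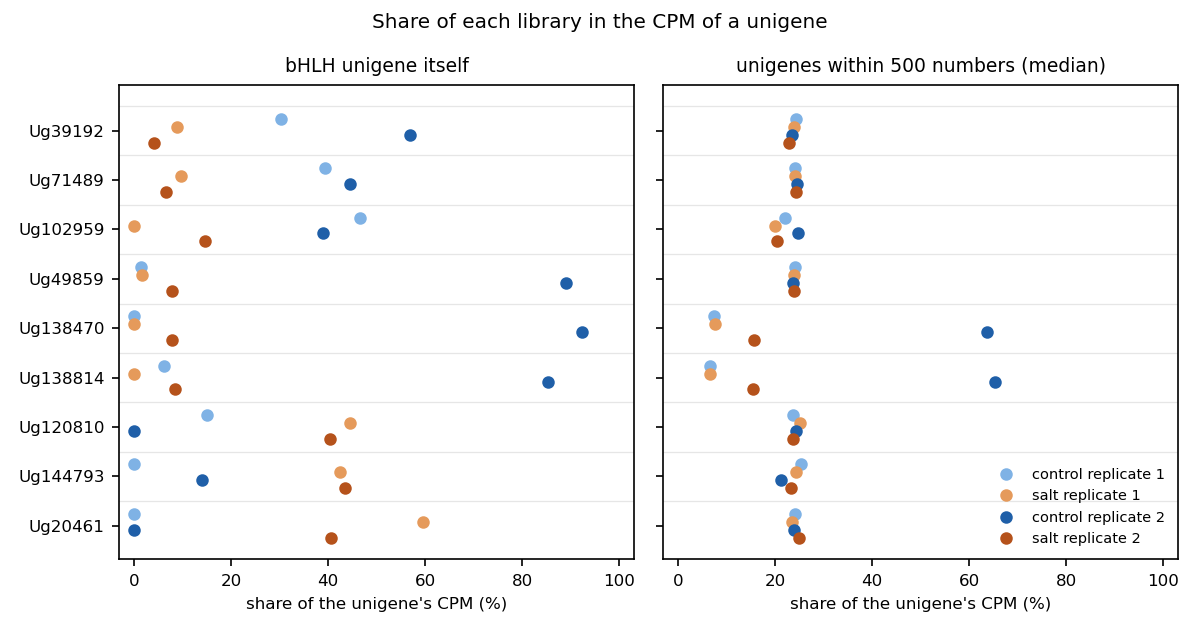
Share of a unigene's CPM (horizontal axis, %) found in each of the 4 libraries, for the 9 bHLH unigenes on the left and as the median over the unigenes within 500 numbers of each on the right. Control replicate 2 holds 89.0%, 92.3% and 85.3% for Ug49859, Ug138470 and Ug138814, and on the right it stands apart only around Ug138470 and Ug138814, at 63.7% and 65.3%.

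The 3 bHLH unigenes listed as raised by salt had 12 (Ug120810), 8 (Ug144793) and 6 (Ug20461) reads in all 4 libraries together. Ug120810 (1827 bp) was read 2 times in control replicate 1, 0 times in control replicate 2, and 6 and 4 times under salt in replicates 1 and 2. This is an RPKM of 0.0488 and 0 for the controls and 0.151 and 0.128 under salt. Ug144793 (519 bp) was read 0 and 1 times in the controls and 4 and 3 times under salt, which is an RPKM of 0.354 and 0.338 in salt-treated replicates 1 and 2. Ug20461 (1914 bp) had 4 and 2 reads in the salt-treated libraries and 0 in both controls, an RPKM of 0.0960 and 0.0610. In all 3 both salt-treated libraries lay above both controls. The counting interval of the ratio of salt over control nevertheless includes 1 within each replicate number. For Ug120810 in replicate 1 the salt-treated library was 2.94 times the control (0.526 to 29.8). The other pairs of libraries hold 4 reads or fewer of these unigenes. Even 4 reads against 0, as for Ug144793 in replicate 1, give an interval that starts at 0.647. In those pairs the interval thus had to include 1, however the reads fell. At this depth, a difference within a pair of libraries was not detectable for any of these 3. By mean RPKM they were above 11.8% (Ug120810), 21.8% (Ug144793) and 5.81% (Ug20461) of the unigenes with reads.

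**Figure D3:**
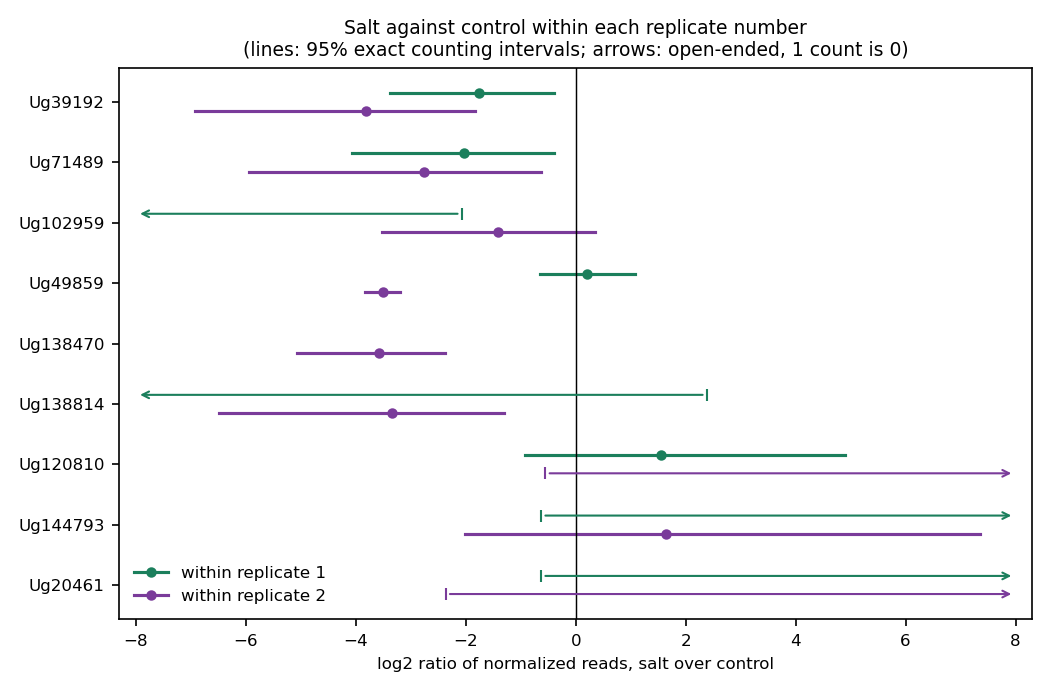
Log2 ratio of normalized reads, salt over control (horizontal axis), within replicate 1 (green) and replicate 2 (purple) for each bHLH unigene; points are ratios, lines are 95% exact counting intervals, and arrows are open-ended intervals where 1 count is 0. Both points lie below 0 for Ug39192 (-1.76 and -3.81) and Ug71489 (-2.03 and -2.76), the points of Ug49859 lie at 0.20 and -3.51, and every interval of the 3 unigenes at the bottom crosses 0.

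Of the 6 bHLH unigenes listed as lowered, 4 had fewer normalized reads in salt within both replicate numbers (Ug39192, Ug71489, Ug102959 and Ug138814) and 3 had both salt-treated libraries below both controls. Among all unigenes with reads, these shares were 20.3% and 8.77%, and among the tested ones 24.3% and 8.09%. Of the 3 listed as raised, 3 were higher within both replicate numbers and 3 had both salt-treated libraries above both controls, against 18.8% and 8.34% of all unigenes with reads. The members were listed for their direction in these libraries, so these counts are no result about the family.

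In edgeR's quasi-likelihood fit over the 62900 tested unigenes, the log2 fold change of salt over control was -2.68 (standard error 0.89) for Ug39192 and -2.31 (0.99) for Ug71489. It was -2.57 (1.58) for Ug102959 and -3.25 (1.83) for Ug49859. The median of the 4 was -2.62, compared with -0.0040 over all tested unigenes. None of the 4 reached an adjusted p of 0.05 in edgeR, and none did in DESeq2 or limma, while 1 of the 4 had an unadjusted p under 0.05 in edgeR, 2 in DESeq2 and 2 or 3 in limma (with 0.1 or 1 added to the RPKM). A test on the summed reads of each group, which takes reads and not libraries as replicates, called all 4, as it did 12.9% of all tested unigenes in that direction. Of all tested unigenes, edgeR called 0% at an adjusted p of 0.05. At an unadjusted p under 0.05 it had 0.11% as lower and 0.0954% as higher, while DESeq2 had 0.328% and limma 0.157% or 0.186% as lower. All these shares lie far below those expected at this threshold without any difference, so these fits were cautious. They have no term for the replicate number. With it as a block, edgeR had 1572 unigenes as lower and 586 as higher at an unadjusted p under 0.05. The lack of calls thus does not show that salt had no effect. As the members were listed on this contrast and Ug39192, Ug71489 and Ug102959 passed the filter through the controls only, nothing is read from these counts. The smallest two-sided p that an exact permutation of 4 libraries can reach is 0.333.
When libraries were left out one at a time, the fold change of Ug39192 stayed between -3.35 and -2.16 and that of Ug71489 between -2.60 and -2.07. For Ug102959 it was -1.52 without salt-treated replicate 1. Without salt-treated replicate 2, the only salt-treated library left has 0 reads of Ug102959, and the value of -6.87 is set by the prior count. The fold change of Ug49859 turned to 1.66 without control replicate 2, and was -4.23 without control replicate 1, -2.53 without salt-treated replicate 1 and -4.71 without salt-treated replicate 2. These fits have no term for the replicate number, and the library left alone in its group is assumed to vary like the others.

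**Figure D4:**
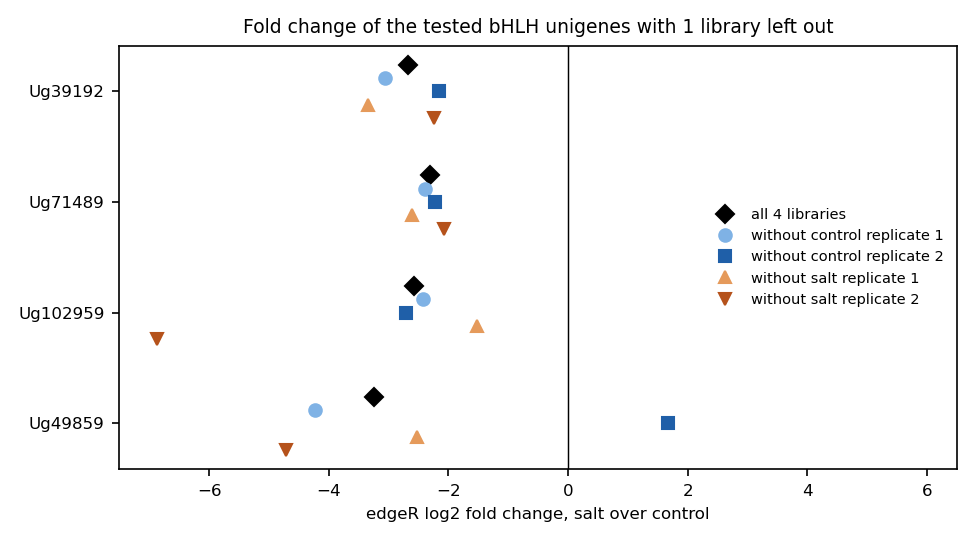
Log2 fold change of salt over control from edgeR (horizontal axis) for the 4 tested bHLH unigenes, with all 4 libraries (black diamonds) and with 1 library left out (other symbols). All values of Ug39192 and Ug71489 lie between -3.35 and -2.07, whereas Ug49859 lies at 1.66 without control replicate 2 and between -4.71 and -2.53 otherwise.

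Replicate 2 was compared with replicate 1 in the same way, with 2 libraries on each side. This is another contrast than the one behind the list, but it is not independent of it. Ug49859 was lower in salt through control replicate 2, which also holds most of its reads in replicate 2, and the values are therefore given as a description. What sets the replicates apart, beyond separate plants, is not given in the labels. Of all tested unigenes, 8.43% were called at an adjusted p of 0.05 (4.87% higher and 3.56% lower in replicate 2). None of the 4 tested bHLH unigenes was called by edgeR in this fit, where Ug49859 had an adjusted p of 0.0606. Of the 4, 1, Ug49859, had an unadjusted p under 0.05, as did 33.7% of all tested unigenes. With condition as a further term, edgeR called Ug49859 (adjusted p 0.0387), and 3650 of all tested unigenes as higher in replicate 2. DESeq2 also called Ug49859, 1 of the 4, and 9.55% of all tested unigenes as higher in replicate 2. Ug49859 was higher in replicate 2 in both groups. The edgeR fit with the replicate number alone gave 1 difference over both groups, 4.92 on the log2 scale (standard error 1.19). Without control replicate 2 the difference between the replicates was 2.27, and without salt-treated replicate 2 it was 5.79.
For the other 3 the difference between replicates was small beside its error. The log2 fold change of replicate 2 over replicate 1 was 0.64 (standard error 1.14) for Ug39192, 0.07 (1.04) for Ug71489 and 0.21 (1.36) for Ug102959. Ug138470 and Ug138814, whose reads were nearly all in replicate 2, reached 10 reads in 1 library only and did not pass the filter.

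Taken by their profile over the 4 libraries, Ug39192 and Ug71489 were the closest pair among the 4 tested bHLH unigenes. The Euclidean distance of their centred log2(CPM + 0.1) profiles was 0.703, compared with 1.54 between Ug71489 and Ug102959, 1.92 between Ug39192 and Ug102959, and 4.07 to 4.34 between Ug49859 and each of the others. These distances rest on 4 values per unigene and are descriptions. Among the 71 other tested unigenes that the study names as transcription factors or as related to salt tolerance, the profile nearest to Ug39192 was that of the MYB unigene Ug121384 (distance 0.671). MYB proteins are another large family of DNA-binding factors in plants. Ug121384 was read 36 and 94 times in the controls and 22 and 8 times under salt, replicate 1 before replicate 2. Nearest to Ug49859 was another MYB unigene, Ug86066 (distance 0.886), read 10 and 338 times in the controls and 6 and 54 times under salt. Both were highest in control replicate 2, which the choice by profile makes likely. Ug71489 was nearest to Ug86979, named as a chlorophyll a-b binding protein of the light-harvesting complex (0.600, 98 and 62 reads against 18 and 17 under salt), and Ug102959 to Ug45471, an uncharacterized protein (0.688).

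The study's list holds 48 transcription factor unigenes outside the bHLH family, 24 listed as lowered and 24 as raised. Of the 24 listed as lowered, 10 were lower within both replicate numbers and 4 had both salt-treated libraries below both controls, and for 20 a single control library held at least 90% of the CPM of the control group. The corresponding numbers were 3, 2 and 3 of the 5 MYB unigenes, which are among these 24. They were 4, 3 and 3 of the 6 bHLH unigenes listed as lowered. Among all unigenes with reads, the shares were 20.3%, 8.77% and 26.2%. Of the 24 other unigenes listed as raised, 20 were higher within both replicate numbers, against 18.8% of all unigenes with reads. The filter was passed by 11 of these 24 and by 0 of the 3 bHLH unigenes listed as raised. It was passed by 62900 of the 121929 unigenes with reads. The differences between families were not tested. In the edgeR fit with the replicate number alone, 3 of the 22 other tested transcription factors were called at an adjusted p of 0.05. All 3 were higher in replicate 2. Of the 4 bHLH unigenes 0 were called in this fit, and of all tested unigenes 8.43%.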

How the data were processed

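The authors assembled clean Illumina reads de novo into unigenes with Trinity and deposited, for each of the 4 root libraries, the raw read counts per unigene without normalization. They also deposited RPKM, which their methods obtain with SOAP. RPKM equalled reads per kilobase scaled to the counted reads, within 5e-05. The sources used here do not give how read pairs or reads with several hits were counted, so reads of related bHLH sequences may be split between unigenes.

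Counts were fitted with edgeR 4.0.16 under R 4.3.3, using glmQLFit and glmQLFTest, TMM factors and filterByExpr (at least 10 reads, 15 in total) and Benjamini-Hochberg adjustment over all tested unigenes. The standard error is the log2 fold change divided by the square root of the F statistic. DESeq2 1.42.0 and limma 3.58.1 (on log2 RPKM) were alternatives. The fit was tested on simulated data with a single common spread for all unigenes, taken from these libraries, and no difference between replicate numbers. Changes were placed only in unigenes more abundant than Ug39192, Ug71489 and Ug102959. Those of about the size fitted for the bHLH unigenes were not called and much larger ones mostly were. What the test could detect for these less abundant unigenes is therefore not shown. Ratios within a replicate number have exact binomial (Clopper-Pearson) intervals. Summaries used Python 3.11.15, pandas 2.3.3 and scipy 1.17.1. The members, lists and tests were chosen with earlier results of these data known. Named unigenes were the 9 members and, for each tested one, the nearest profile among the other unigenes the study lists. Unigene sequences were not analysed here.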

Additional observations from a re-analysis of the deposited data

How the results depend on the processing

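For salt against control, edgeR called 0 unigenes higher and 0 lower under each setting of normalization, filter and left-out library. DESeq2 called 1 in each direction. A test that sums the reads of a group and takes reads as replicates called 10217 higher and 8117 lower, among them all 4 tested bHLH unigenes. With the replicate number as a block, edgeR called 0 in each direction and the log2 fold change of Ug39192 was -2.59, of Ug71489 -2.30, of Ug102959 -2.81 and of Ug49859 -1.90. The labels do not say that a number pairs libraries. The deviations of same-numbered libraries correlated at 0.660 over the 62900 tested unigenes, a hint from the data and not from the design. The sign of the salt fold change was kept for the 4 tested bHLH unigenes except for Ug49859 without control replicate 2 (1.66). With 1 library left out in turn, its range was -4.71 to 1.66 for Ug49859, -6.87 to -1.52 for Ug102959, -3.35 to -2.16 for Ug39192 and -2.60 to -2.07 for Ug71489.

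For replicate 2 against replicate 1, 3062 unigenes were called higher and 2240 lower. These were 6005 and 4904 in DESeq2 and 0 and 0 without a filter on low counts, and with 1 library left out 1205 to 5526 and 1111 to 4705. Without that filter the adjusted p of Ug49859 in edgeR was 0.218. Among the fits that kept all 4 libraries, 1 bHLH unigene (Ug49859) was called in DESeq2, and the same 1 with condition as a further term in edgeR. With this further term, 3650 of the 62900 tested unigenes were called higher and 3032 lower. The small difference of Ug71489 between replicates turned to -0.056 with condition as a further term. With 1 library left out it lay between -1.86 and 1.38, that of Ug39192 between -2.24 and 1.75 and that of Ug102959 between -0.78 and 6.08. The value of 6.08 was found without control replicate 1. The only replicate 1 library then left has 0 reads of Ug102959, so the prior count sets this value. The difference of Ug49859 between replicates stayed between 2.27 and 5.79. Adding 1 CPM in place of 0.1 moved all 17 log2 ratios within a replicate number towards 0, and 4 of them out of their counting interval, to -1.26 for Ug39192, -1.97 for Ug138470 and -0.99 for Ug138814 (all within replicate 2) and -0.82 for Ug102959 (within replicate 1). The cause of these changes was not tested, apart from the added CPM, which by construction shrinks ratios of low counts. Low read numbers in most or all libraries kept 5 of the 9 unigenes below the filter.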
